A study of Mus musculus with 9 samples.

Results

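The Ikaros family of transcription factors was followed across 3 mouse knockout lines of early lymphocytes. Its members here were Ikzf1 (Ikaros), Ikzf2 (Helios) and Ikzf3 (Aiolos), and every probe set whose RefSeq accession or description named one of these genes was taken: 2 probe sets for Ikzf1, 3 for Ikzf2 and 3 for Ikzf3, 8 of the 45101 probe sets on the array and 3 of 9905 named genes. The rule used gene names and no measured value, although the family was proposed with earlier results of these data known. A probe set is a group of short probes for 1 transcript, and its signal was read on 1 Affymetrix expression array per RNA sample, with 3 arrays per line. The lines are labelled EBFko (EBF deficient, lymphoid specified), Pax5ko (Pax5 deficient, B lineage specified) and RAG2ko (RAG2 deficient, B lineage committed). In B lineage development EBF acts before Pax5, and RAG2 is needed to rearrange the antigen receptor genes. The EBFko and Pax5ko cultures contained 10 ng/ml human Flt3 ligand and 10 ng/ml mouse IL-7, whereas the RAG2ko culture contained 10 ng/ml IL-7 and no Flt3 ligand, so genotype and medium cannot be told apart in any comparison with RAG2ko. All lines shared IL-7, and no further treatment is listed for the samples. The labels give neither mouse strain and age, nor the deleted exons, nor whether a line came from 1 clone, nor whether replicates are independent cultures; the p-values therefore measure the spread between these samples, which may be technical.

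Ikaros family proteins are zinc finger transcription factors. The amino-terminal zinc fingers bind DNA with a GGGAA core, and those at the carboxyl end join family members into homodimers and heterodimers, so the makeup of a dimer depends on which members a cell makes. Ikaros is required for lymphocyte development, with severe loss of B lineage cells in its absence; Aiolos is known to appear later in the B lineage and, together with Ikaros, to help pre-B cells leave the cell cycle; Helios is best known from early progenitors and from T cells. Much of the Ikaros in lymphocytes is found with the NuRD complex, which combines nucleosome remodelling with histone deacetylation.

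The promoter regions that RefSeq gives for Ikzf1 are printed because Ikzf1 was the member whose signal differed between the lines on every probe set, and because 1 of the lines lacks EBF. Each runs from 250 bases before to 50 bases after an annotated start, on the plus strand of build GRCm38.p6, and both were searched on both strands for CCCNNGGG, the core of the EBF motif, for the same core with T before and A after it, and for TGGGAA, which holds the Ikaros core. The first lies at chr11:11685675-11685974 and the second at chr11:11689927-11690226. Capitals mark a match to CCCNNGGG, a motif that reads alike on both strands.
Ikzf1 promoter 1: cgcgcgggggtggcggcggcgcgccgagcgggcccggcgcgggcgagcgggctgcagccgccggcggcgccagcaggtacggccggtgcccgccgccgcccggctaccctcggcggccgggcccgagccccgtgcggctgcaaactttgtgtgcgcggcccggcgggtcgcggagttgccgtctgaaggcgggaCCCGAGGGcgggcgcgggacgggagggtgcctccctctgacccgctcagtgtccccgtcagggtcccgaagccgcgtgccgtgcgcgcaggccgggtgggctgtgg
Ikzf1 promoter 2: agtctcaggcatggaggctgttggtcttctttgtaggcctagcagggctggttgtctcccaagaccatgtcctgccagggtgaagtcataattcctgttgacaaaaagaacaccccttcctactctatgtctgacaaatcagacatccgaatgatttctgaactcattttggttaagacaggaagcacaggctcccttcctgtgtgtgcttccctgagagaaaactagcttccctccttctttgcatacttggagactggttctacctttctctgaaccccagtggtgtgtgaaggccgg
The first region is 81.3% G and C and holds CCCGAGGG with its first base at -56 from the start. The second is 49% G and C and holds none of the 3 motifs. The longer EBF motif, with its T and A, was in neither region. Over all 32851 promoter regions of the same length, 13.7% hold CCCNNGGG, 0.904% hold the longer form and 25.6% hold TGGGAA, so the match in the first region is a common one, and a match describes letters, not binding. Helios and Aiolos are named here without a promoter sequence.

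All levels are log2 normalized signals, with the mean ± SD over the 3 arrays of a line, and each difference between lines is on the log2 scale with its SE. Differences were tested two-sided with limma in 1 fit over the 40928 probe sets that exceeded 4 on the log2 scale in 3 or more of the 9 arrays, with Benjamini-Hochberg adjustment over all of them, and a call is an adjusted p under 0.05. Of the 8 family probe sets, 6 passed this filter. No detection calls were used, and a signal under 64 (log2 of 6) is called dim; 40.9% to 47.2% of probe sets on an array were dim, and the median signal of an array was 73.4 to 97.6. The number of arrays limits the precision of every value.

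B lineage markers followed the labels in their order. All 7 had a mean above 6 in RAG2ko, 5 in Pax5ko and 3 in EBFko, where Vpreb1 (3.70 ± 2.07), Cd79a (5.26 ± 0.50) and Cd79b (5.58 ± 1.03) were dim. Their summed signal, on the linear scale after normalization, was 80107 to 100156 in RAG2ko, 32477 to 36864 in Pax5ko and 2161 to 3276 in EBFko. T, NK, myeloid, plasmacytoid dendritic and stem cell sums were highest in EBFko, as the plot of marker sums shows, and the sum of 6 erythroid markers stayed at 310 to 601 on all arrays. Of the targeted genes, Pax5 was dim on the Pax5ko arrays (2.64 to 5.62), Rag2 was 5.96, 5.60 and 9.10 on RAG2ko replicates 1, 2 and 3, and the 3 Ebf1 probe sets read 9.43 to 11.22 on the arrays labelled EBFko, above their 8.84 to 10.06 in Pax5ko. The positions of these probe sets relative to the deletions are not given, so they do not check the labels, and every direction below that involves EBFko rests on that label. RAG2ko replicate 3 stood apart in its stromal transcripts, with a sum of 11 of 12 markers of 19003 against 1180 and 2274 on the other RAG2ko arrays and 8586 to 40429 in the other lines, so the family probe sets are also given without it, as are the counts of other gene lists where its removal changed them. In the other lines replicate 3 was also highest: replicates 1, 2 and 3 gave 28925, 8586 and 39508 in EBFko and 24945, 11176 and 40429 in Pax5ko. Whether equal replicate numbers share a source was not tested.

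**Figure D1:**
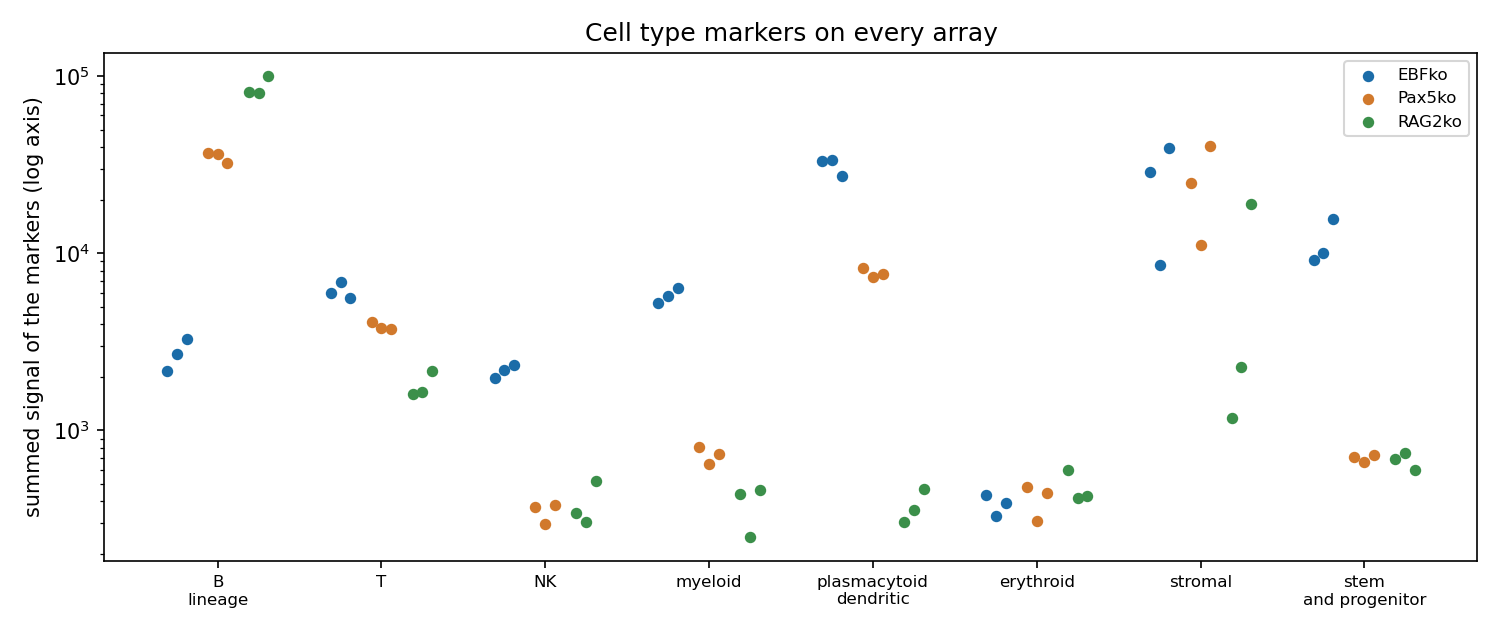
Summed normalized signal, on a linear scale, of the markers of 8 cell types on each of the 9 arrays, on a log axis; each point is 1 array, coloured by line. B lineage sums are lowest in EBFko and highest in RAG2ko, the plasmacytoid dendritic sums run the other way, and stromal sums spread widely within every line, with RAG2ko replicate 3 at 19003.

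Ikaros transcript was highest in EBFko. Ikzf1 transcript was 2.16-fold to 2.86-fold lower in Pax5ko than in EBFko and 2.29-fold to 2.87-fold lower in RAG2ko than in EBFko, on both of its probe sets, while Pax5ko and RAG2ko could not be separated. On probe set 1421303_at the log2 signals were 11.32, 11.31 and 11.17 on the EBFko arrays, 9.79, 9.48 and 9.97 on the Pax5ko arrays and 9.74, 9.88 and 9.62 on the RAG2ko arrays. As deposited, before normalization, these were signals of 2470, 2504 and 2329, then 897, 735 and 1027, then 813, 897 and 776. Every EBFko array lay above all arrays of the other lines, and the Pax5ko and RAG2ko arrays interleaved.

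On that probe set the Ikzf1 difference was -1.52 ± 0.17 for Pax5ko minus EBFko (limma adjusted p = 0.00398) and likewise -1.52 ± 0.17 for RAG2ko minus EBFko (adjusted p = 0.00176). The second probe set, 1436312_at, read 13.41, 13.34 and 13.32 in EBFko, 12.16, 12.36 and 12.20 in Pax5ko, and 12.00, 12.26 and 12.21 in RAG2ko. Again no array of EBFko overlapped with the others. Its differences were -1.11 ± 0.14 for Pax5ko minus EBFko (adjusted p = 0.00636) and -1.20 ± 0.14 for RAG2ko minus EBFko (adjusted p = 0.0022). Between RAG2ko and Pax5ko the differences were -0.00 ± 0.17 and -0.08 ± 0.14 (adjusted p = 0.995 and 0.765), a pair of values that lie within their standard errors of 0. Without RAG2ko replicate 3, RAG2ko minus EBFko was -1.45 (adjusted p = 0.00542) and -1.22 (adjusted p = 0.00484), and RAG2ko minus Pax5ko was 0.06 and -0.11 (adjusted p = 0.859 and 0.691).

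The authors' deposited table of each knockout, which holds 1 ratio per probe set to an unstated reference and no replicates, ordered Ikzf1 alike. Its ratios were 2.77 in EBFko, 0.802 in Pax5ko and 0.941 in RAG2ko for 1421303_at, and 2.336, 0.952 and 0.966 for 1436312_at.

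The fall was somewhat larger on 1421303_at than on 1436312_at. Taken within each array, the log2 signal of the first probe set minus that of the second averaged -2.09 ± 0.06 for EBFko, -2.49 ± 0.34 for Pax5ko and -2.41 ± 0.17 for RAG2ko. Every EBFko array had a smaller gap than every array of the other lines. The exact permutation p was 0.1 for each comparison with EBFko, which is the smallest that 3 arrays against 3 allow (two-sided, 3 comparisons in all), so an unequal fall was not established. Where in the transcript each probe set lies was not given.

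Several marker sums moved with Ikzf1. Summed signals in EBFko, Pax5ko and RAG2ko were 5590 to 6863, 3751 to 4074 and 1605 to 2177 for 8 of 9 T cell markers, 1976 to 2334, 297 to 381 and 305 to 518 for 7 NK cell markers, and 5219 to 6414, 649 to 806 and 249 to 460 for 7 of 8 myeloid markers. For 3 of 5 plasmacytoid dendritic cell markers they were 27296 to 33836, 7377 to 8240 and 303 to 465, and for 6 stem and progenitor markers 9157 to 15607, 665 to 730 and 602 to 750. Of these lists, the NK and the stem and progenitor sums shared the Ikzf1 order most closely, high in EBFko and similar in the other lines. The T cell receptor complex genes Cd3e (3.34 ± 0.37), Cd3g (3.98 ± 2.00) and Cd3d (2.75 ± 0.09) were dim in EBFko, so that list's signal there came from genes such as Lck (12.15 ± 0.15) and Cd28 (10.27 ± 0.98). The part of these markers in the Ikzf1 difference was not tested, and in RNA of whole cultures fewer cells of a type and less RNA per cell cannot be told apart.

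**Figure D2:**
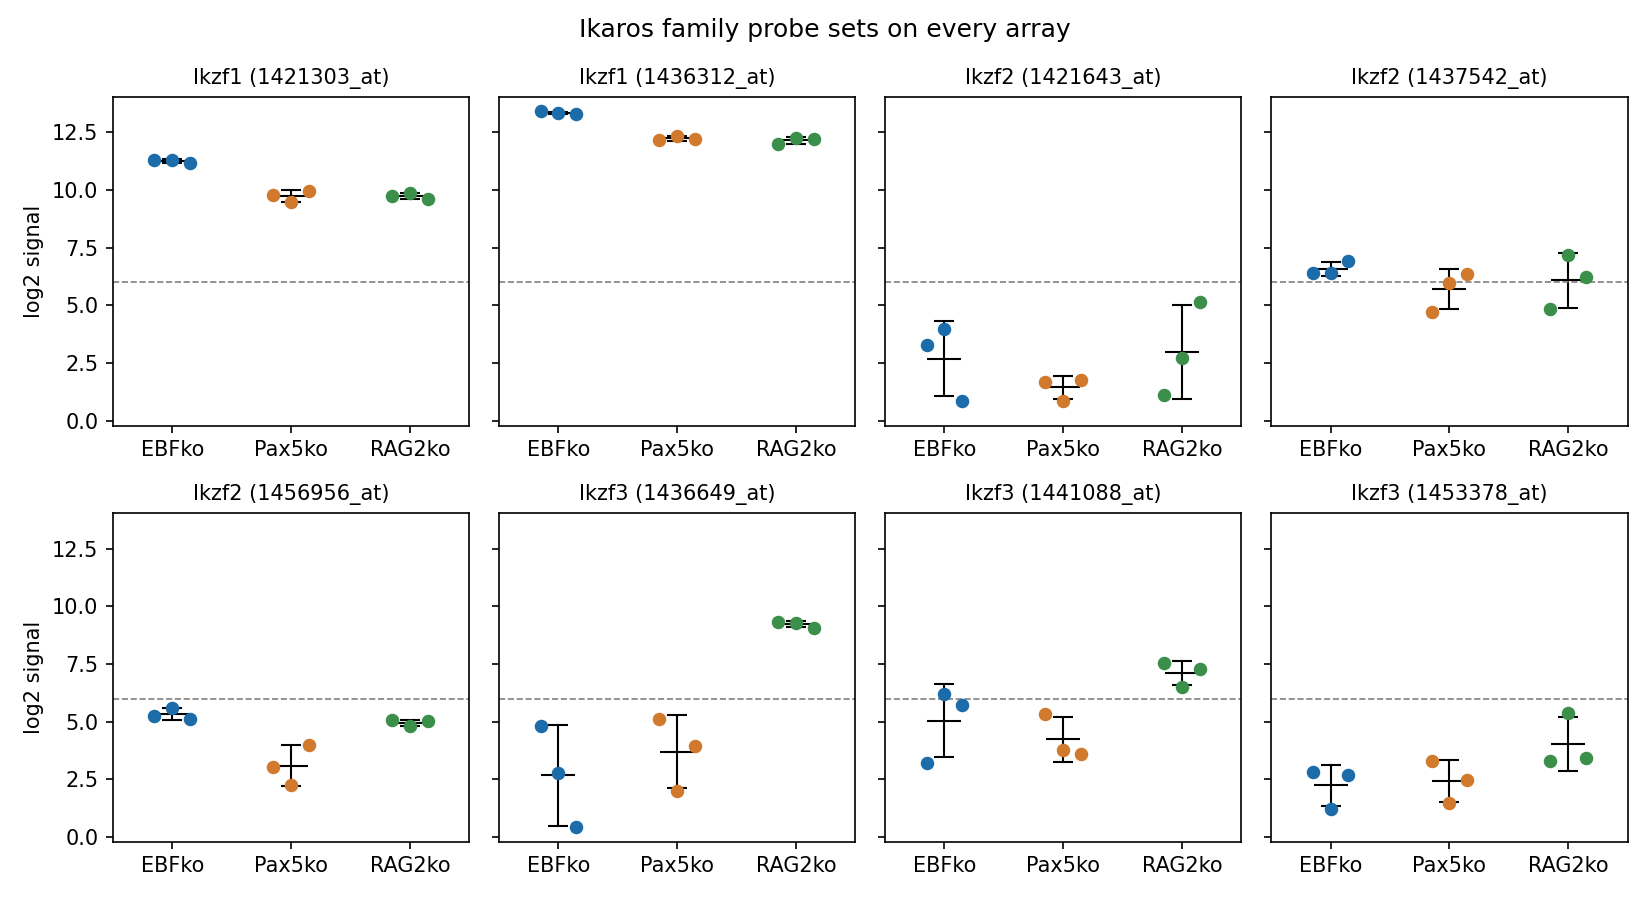
Log2 normalized signal of the 8 Ikaros family probe sets on each array, with points for arrays, bars for mean ± SD (n = 3) and a dashed line at 6, below which signals are dim. Both Ikzf1 probe sets are bright and highest in EBFko, Ikzf3 1436649_at is bright in RAG2ko alone, and the Ikzf2 probe sets lie near or below the line.

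Aiolos showed the largest difference of the family. Ikzf3 signal on 1436649_at was bright in RAG2ko, at 9.31, 9.27 and 9.07, and dim on every array of the other lines, at 4.80, 2.77 and 0.43 in EBFko and 5.13, 2.00 and 3.93 in Pax5ko. The deposited signals were 578, 565 and 528 in RAG2ko against 1.1 to 33.1 in EBFko and 3.46 to 31.2 in Pax5ko. The lines with dim signal have no reliable order between them, and Pax5ko minus EBFko was 1.02 ± 1.15 (adjusted p = 0.732).

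In the limma fit Ikzf3 was higher in RAG2ko than in EBFko by 6.55 ± 1.15 (adjusted p = 0.0111) and higher than in Pax5ko by 5.53 ± 1.15 (adjusted p = 0.0255). These sizes depend on how dim signals are spread; with signals below 64 raised to 64, both differences were 3.22. The authors' deposited tables gave ratios of 0.477, 0.497 and 13.37 for EBFko, Pax5ko and RAG2ko, which is 28.0-fold and 26.9-fold higher in RAG2ko. The comparison with Pax5ko lost its call in each of 5 fits that left out 1 array, with adjusted p = 0.0711 and 0.075 without Pax5ko replicates 3 and 2 and 0.0744, 0.0737 and 0.0537 without RAG2ko replicates 1, 2 and 3, although the difference stayed between 4.66 and 5.63. Without RAG2ko replicate 3 the comparison with EBFko gave 6.64 (adjusted p = 0.0274).

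The other Ikzf3 probe sets were dimmer in RAG2ko. In EBFko and Pax5ko, 1441088_at had higher means (5.04 and 4.23) than 1436649_at (2.67 and 3.69). On 1441088_at the values were 3.22, 6.20 and 5.71 in EBFko, 5.34, 3.76 and 3.58 in Pax5ko and 7.55, 6.52 and 7.26 in RAG2ko. All 3 RAG2ko arrays lay above the other 6, but neither comparison passed: RAG2ko minus Pax5ko was 2.88 ± 0.83 (adjusted p = 0.076) and RAG2ko minus EBFko was 2.07 ± 0.83 (adjusted p = 0.161). With signals below 64 raised to 64 both passed, at 1.11 (adjusted p = 0.014) and 1.04 (adjusted p = 0.0155). They were 2.82 and 2.01 without RAG2ko replicate 3 (adjusted p = 0.133 and 0.243). The authors' deposited ratios for it were 0.959, 0.794 and 2.809. Probe set 1453378_at was dim on all 9 arrays, with a highest value of 5.37 in RAG2ko, and was not tested.

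B lineage marker sums rose in the same order as the labels place the lines, and in RAG2ko they were highest together with Ikzf3. Pax5ko, where 5 of the 7 markers were above 6, nonetheless had dim Ikzf3. The medium of RAG2ko also lacked Flt3 ligand, and the part of medium, markers and genotype in the Ikzf3 difference was not tested.

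Helios signal was weak throughout, and its calls rest on dim values. Probe set 1456956_at read 5.25, 5.60 and 5.10 in EBFko, 3.02, 2.25 and 4.0 in Pax5ko and 5.05, 4.81 and 5.01 in RAG2ko. All 9 values are dim, with those of Pax5ko lowest and not overlapping the other lines. The fit gave -2.22 ± 0.41 for Pax5ko minus EBFko (adjusted p = 0.0247) and 1.87 ± 0.41 for RAG2ko minus Pax5ko (adjusted p = 0.0305). Raising signals below 64 to 64 leaves no difference at all, 7 and 9 of 16 other settings lost these calls, among them the fit without RAG2ko replicate 3 for RAG2ko minus Pax5ko (1.84, adjusted p = 0.0645), and the authors' deposited ratios differed by -0.07 and 0.42 on the log2 scale.

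The brightest Ikzf2 probe set, 1437542_at, passed in no comparison. It read 6.40, 6.42 and 6.91 in EBFko, 4.73, 5.99 and 6.37 in Pax5ko and 4.83, 7.18 and 6.25 in RAG2ko, so the lines overlapped except that EBFko lay just above Pax5ko. Differences were -0.88 ± 0.65 for Pax5ko minus EBFko, 0.39 ± 0.65 for RAG2ko minus Pax5ko and -0.49 ± 0.65 for RAG2ko minus EBFko (adjusted p = 0.56, 0.755 and 0.689), and without RAG2ko replicate 3 the comparisons with RAG2ko gave 0.31 and -0.57 (adjusted p = 0.835 and 0.679). Probe set 1421643_at was dim on all arrays, between 0.85 and 5.14, and was not tested. Given these signals, a moderate difference in Helios would not have been detectable.

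Counted over the 6 tested probe sets, 0 were higher and 3 lower in Pax5ko than in EBFko, where 5.22% of all probe sets were called (2.64% higher, 2.58% lower), and the median difference was -1.0 against -0.01 over all probe sets. For RAG2ko minus Pax5ko, 2 were higher and 0 lower beside 9.92% called (4.98% higher, 4.94% lower), with a median of 1.13 against 0.07. For RAG2ko minus EBFko, 1 was higher and 2 lower beside 12.6% called (6.41% higher, 6.23% lower), with a median of -0.42 against 0.06. In both comparisons with RAG2ko the median lies between the differences of the 2 tested Ikzf2 probe sets, whose signals were dim or near 64. With signals below 64 raised to 64, these Ikzf2 differences were -0.45 and 0.0, 0.35 and 0.0, and -0.1 and 0.0, in the order above. The family medians therefore depend on dim signals. The lines' arrays did not overlap for 29%, 32.6% and 33.4% of all probe sets in these comparisons, so separation of the arrays alone is common. At an unadjusted p under 0.05 the counts were 0 and 3, 3 and 0, and 2 and 2. The comparisons share arrays and are not independent of each other. Without RAG2ko replicate 3 the counts of calls were 3, 0 and 3.

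**Figure D3:**
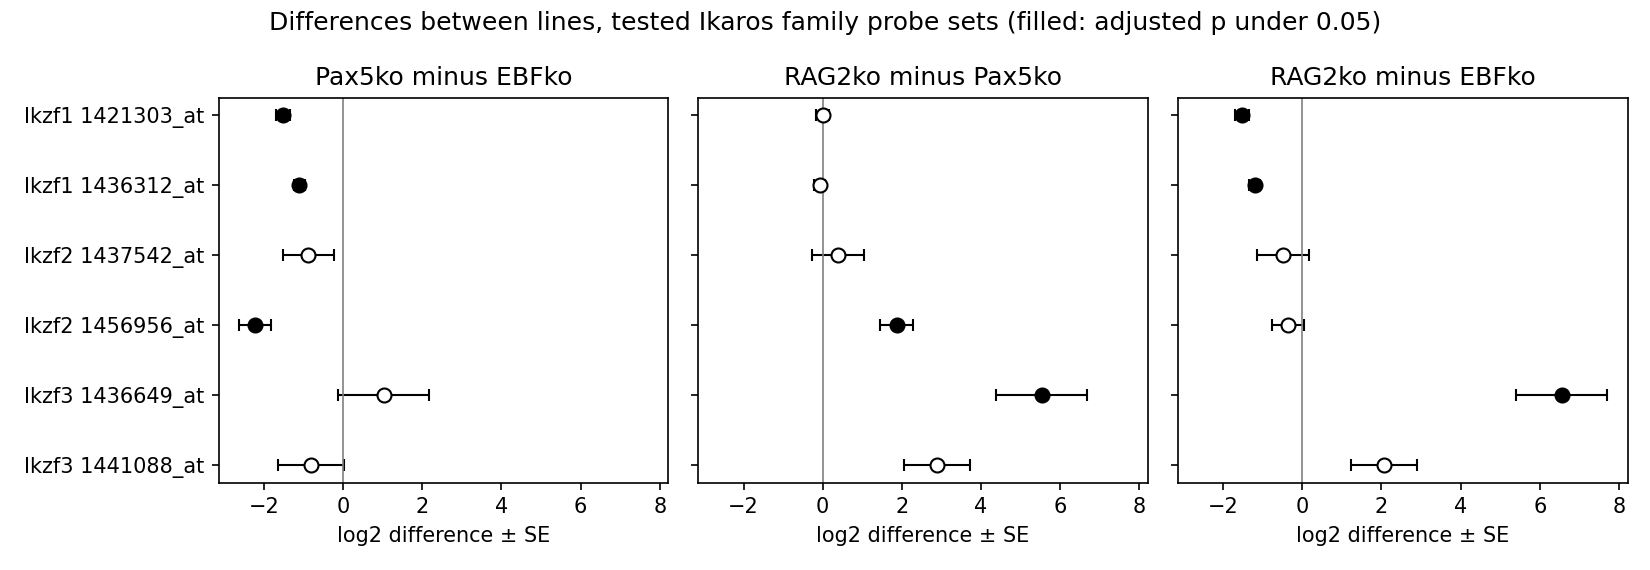
Log2 differences ± SE from the limma fit for the 6 tested Ikaros family probe sets in each comparison of lines; filled circles passed at an adjusted p under 0.05. Ikzf1 lies below 0 in both comparisons with EBFko and at 0 between RAG2ko and Pax5ko, whereas Ikzf3 1436649_at lies at 5.53 and 6.55 in the comparisons with RAG2ko.

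Of the more distant family, Ikzf5 (Pegasus) also had its highest signal in EBFko. On probe set 1429431_at the EBFko mean was 10.68 ± 0.05, the Pax5ko mean 10.28 ± 0.09 and the RAG2ko mean 9.80 ± 0.09, with no overlap between any lines. RAG2ko minus EBFko was -0.88 ± 0.13 (adjusted p = 0.00613) there and -0.85 ± 0.20 (adjusted p = 0.0324) on the other Ikzf5 probe set, 1436554_at. These became -0.92 ± 0.14 (adjusted p = 0.00891) and -0.77 ± 0.21 (adjusted p = 0.0638) without RAG2ko replicate 3, so the second call was lost. The steps in between, -0.40 and -0.49 on 1429431_at, did not pass (adjusted p = 0.168 and 0.0652). For Ikzf4 (Eos), 1 probe set carries an accession of this gene but a description of ribosomal protein S26; its identity is therefore uncertain, and it was dim on every array, at 4.11 or below.

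Of the NuRD complex, the main partner of Ikaros, Mta3, Hdac1 and Chd4 passed in at least 1 comparison, and the other subunit genes tested passed in none. Each gene is given by its tested probe set with the highest mean. Of 12 subunit genes tested from a list of 13, 1 was higher and 1 lower in Pax5ko than in EBFko, 0 higher and 1 lower in RAG2ko than in Pax5ko, and 0 higher and 3 lower in RAG2ko than in EBFko, with medians of -0.01, 0.03 and -0.04. These calls are 16.7%, 8.33% and 25% of the list, beside 5.22%, 9.92% and 12.6% of all probe sets, and 5, 2 and 6 genes had an unadjusted p under 0.05. The same counts were found without RAG2ko replicate 3.

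Mta3, a subunit that sets one form of NuRD apart, changed the most. It read 10.53 ± 0.21 in EBFko, 11.44 ± 0.11 in Pax5ko and 8.16 ± 0.20 in RAG2ko. RAG2ko was lower than Pax5ko by 3.29 (-3.29 ± 0.18, adjusted p = 1.09e-04) and lower than EBFko (-2.38 ± 0.18, adjusted p = 2.90e-04), whereas Pax5ko was higher than EBFko (0.91 ± 0.18, adjusted p = 0.0307). Hdac1, a histone deacetylase, was 12.93 ± 0.08 in EBFko and lower in Pax5ko (-0.79 ± 0.14, adjusted p = 0.0228) and in RAG2ko (-0.64 ± 0.14, adjusted p = 0.0272). Chd4, the remodelling ATPase of the complex known as Mi-2 beta, was 10.41 ± 0.13, 9.79 ± 0.19 and 9.35 ± 0.27 in EBFko, Pax5ko and RAG2ko and passed in RAG2ko minus EBFko alone (-1.06 ± 0.19, adjusted p = 0.0129). Among the genes that passed in no comparison, the histone-binding subunit gene Rbbp4 had the largest difference (-1.06 ± 0.26 for Pax5ko minus EBFko, adjusted p = 0.0719), and Chd3 (-0.64 ± 0.20, adjusted p = 0.0849) and Mbd2 (0.48 ± 0.14, adjusted p = 0.0746) came near in RAG2ko minus EBFko. The means of Mbd3, Gatad2a and Gatad2b differed by at most 0.13 between lines.

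Other chromatin partners were called in the comparisons with RAG2ko. Of 8 tested from 10, 0 were called by limma in Pax5ko minus EBFko (0 also at an unadjusted p under 0.05), and 1 was higher and 1 lower in RAG2ko than in Pax5ko. These were Smarcb1, a core subunit of the SWI/SNF remodeller (0.68 ± 0.14, adjusted p = 0.0217), and Smarcc1, another of its subunits (-0.88 ± 0.18, adjusted p = 0.024). In RAG2ko minus EBFko 2 were higher and 0 lower, with Ezh2, the methyltransferase of a Polycomb repressive complex, at 0.83 ± 0.17 (adjusted p = 0.019), and 3 were higher without RAG2ko replicate 3, Eed among them. The 2 calls in each comparison with RAG2ko are 25% of the list, beside 9.92% and 12.6% of all probe sets, and 3 and 5 genes had an unadjusted p under 0.05 there. The medians were 0.10, 0.29 and 0.29. Enzymes that modify or act with Ikaros, among them the casein kinase subunits Csnk2a1, Csnk2a2 and Csnk2b, were called by limma in no comparison (0 of 8 tested from 9 in each, and 2, 4 and 3 at an unadjusted p under 0.05; medians -0.05, 0.18 and 0.01). Csnk2a1 was lower in RAG2ko than in Pax5ko without RAG2ko replicate 3 (-0.60 ± 0.14, adjusted p = 0.0451).

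**Figure D4:**
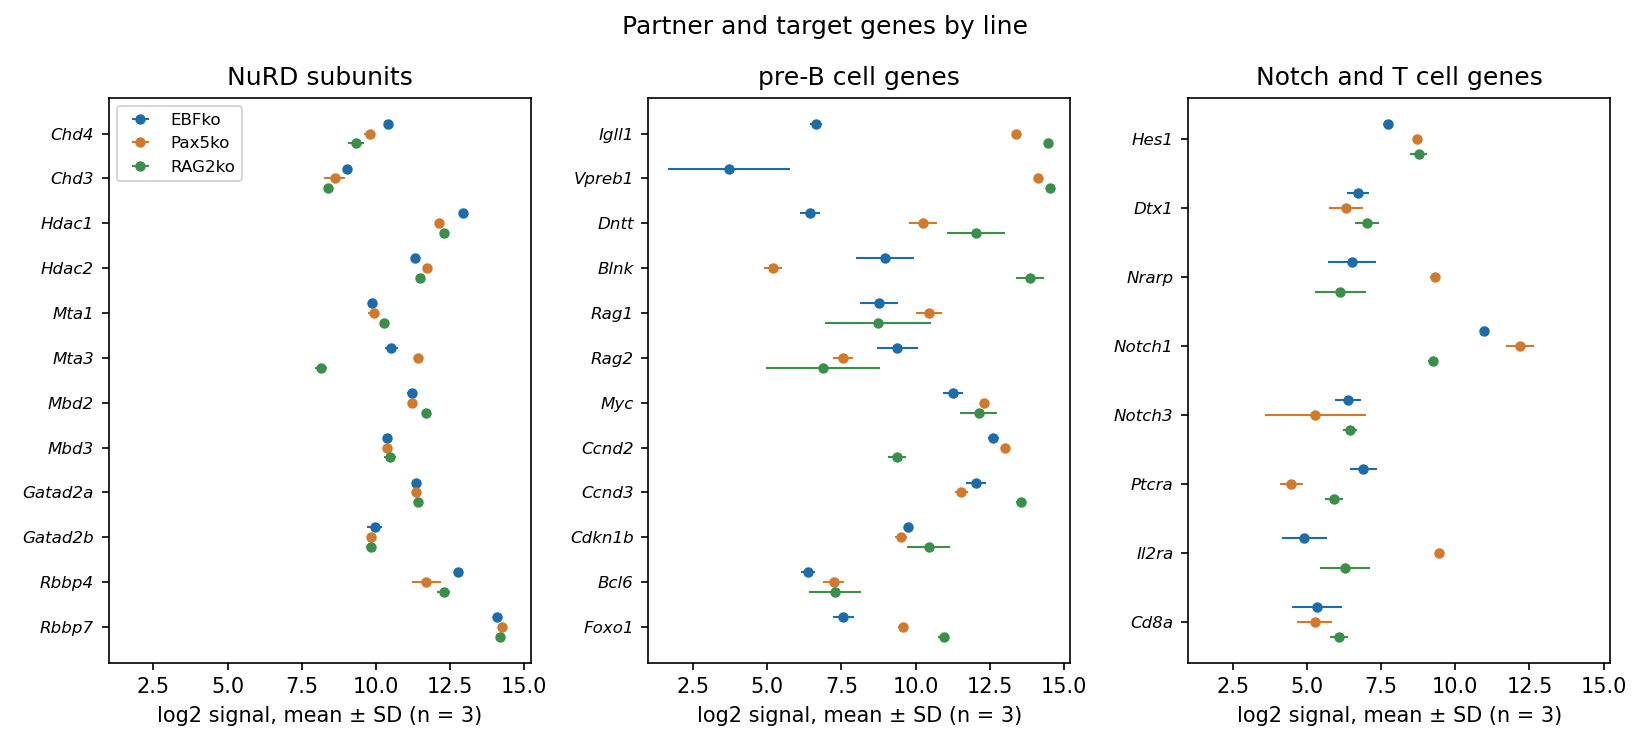
Mean log2 normalized signal ± SD (n = 3 arrays) of each tested gene of the NuRD, pre-B cell and Notch and T cell lists, coloured by line. Among the NuRD genes Mta3 has the widest spread between lines, at 8.16 in RAG2ko and 11.44 in Pax5ko, while pre-B cell genes such as Igll1 and Vpreb1 are lowest in EBFko.

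Pre-B cell genes, several of which Ikaros and Aiolos are known to regulate, differed widely. Of 12 tested, 4 were higher and 1 lower in Pax5ko than in EBFko, 4 higher and 1 lower in RAG2ko than in Pax5ko, and 6 higher and 1 lower in RAG2ko than in EBFko, with medians of 0.96, 0.67 and 1.21. Called genes were 41.7%, 41.7% and 58.3% of the list, beside 5.22%, 9.92% and 12.6% of all probe sets. The surrogate light chain genes Igll1 and Vpreb1 stand in the B lineage marker list too, so their rise from EBFko repeats the marker result. Foxo1, a transcription factor of the pro-B and pre-B stages, rose at each step, from 7.56 ± 0.36 in EBFko to 9.57 ± 0.17 in Pax5ko and 10.95 ± 0.19 in RAG2ko (differences 2.01 ± 0.22 and 1.38 ± 0.22, adjusted p = 0.00342 and 0.00953). Its promoter region was among the 0.904% with the longer EBF motif, at -92 from the start. Foxo1 was the only gene with this form among those searched. Vpreb1, Igll1 and Dntt, also called higher in Pax5ko and RAG2ko than in EBFko, lacked it, and a role of the motif was not tested.

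The D-type cyclins of the list went in opposite directions in RAG2ko. Ccnd3, the cyclin of dividing pre-B cells that Ikaros is known to lower, read 12.05 ± 0.34 in EBFko, 11.54 ± 0.22 in Pax5ko and 13.55 ± 0.16 in RAG2ko, higher in RAG2ko than in Pax5ko by 2.01 ± 0.22 (adjusted p = 0.00202) and than in EBFko by 1.50 ± 0.22 (adjusted p = 0.00532). Ccnd2 was 12.62 ± 0.19, 13.03 ± 0.06 and 9.38 ± 0.30 and lower in RAG2ko in both comparisons (-3.65 ± 0.20 and -3.24 ± 0.20, adjusted p = 1.03e-04 and 1.13e-04). Myc and Cdkn1b, a cell cycle driver and an inhibitor, passed in no comparison. Without RAG2ko replicate 3, Myc passed in RAG2ko minus EBFko (1.22 ± 0.21, adjusted p = 0.0146) and in Pax5ko minus EBFko (1.05 ± 0.19, adjusted p = 0.028), and Rag1 and Rag2 also gained calls, so the counts of this list became 5 and 2, 4 and 3, and 7 and 2. Rag2 is the gene targeted in RAG2ko. Its lower signal there, -1.79 ± 0.43 against Pax5ko and -3.61 ± 0.43 against EBFko, is therefore not a result about the list.

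Receptors of early progenitors were lower, where called, in RAG2ko and Pax5ko. Of 4 genes, 1 was lower in Pax5ko than in EBFko, and 2 were lower in RAG2ko than in either other line, with 0 higher by limma in any comparison (0 also at an unadjusted p under 0.05) and medians of -0.71, -1.97 and -2.29. Called genes were 25%, 50% and 50% of this short list, beside 5.22%, 9.92% and 12.6% of all probe sets. Flt3, whose ligand only the EBFko and Pax5ko media contained, was 11.94 ± 0.15, 9.76 ± 0.10 and 5.92 ± 0.63. Kit, the stem cell factor receptor, was lower in RAG2ko than in Pax5ko (-3.25 ± 0.62, adjusted p = 0.018) and than in EBFko (-4.46 ± 0.62, adjusted p = 0.00408). Il7r, the IL-7 receptor subunit, stayed at 12.27 to 12.54 and passed in no comparison.

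Notch and T cell genes were read because Ikaros is known to restrain Notch targets in T cell precursors. Of 8 tested from 9, 4 were higher and 1 lower in Pax5ko than in EBFko, 1 higher and 3 lower in RAG2ko than in Pax5ko, and 1 higher and 1 lower in RAG2ko than in EBFko, with medians of 0.46, 0.38 and 0.19. Called genes were 62.5%, 50% and 25% of those tested, beside 5.22%, 9.92% and 12.6% of all probe sets. Hes1, a Notch target, was 7.72 ± 0.16 in EBFko and 8.70 ± 0.08 in Pax5ko (0.98 ± 0.19, adjusted p = 0.0294), and stayed near that level in RAG2ko, at 8.76 ± 0.29. Nrarp, another Notch target, was high in Pax5ko alone, at 9.30 ± 0.17 against 6.51 ± 0.80 in EBFko and 6.12 ± 0.85 in RAG2ko (2.78 ± 0.51 and -3.18 ± 0.51, adjusted p = 0.0251 and 0.00957). Il2ra, the IL-2 receptor alpha chain, behaved alike, at 4.90 ± 0.76, 9.45 ± 0.04 and 6.28 ± 0.84. The receptor gene Notch1 was also highest in Pax5ko, at 10.96 ± 0.11, 12.19 ± 0.47 and 9.23 ± 0.16, but unlike Nrarp it was called lower in RAG2ko than in EBFko (-1.73 ± 0.25, adjusted p = 0.00495).

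Ptcra, the pre-T cell receptor alpha chain, made by early T cells and plasmacytoid dendritic cells, was lower in Pax5ko than in EBFko (6.89 ± 0.46 to 4.47 ± 0.40, -2.42 ± 0.31, adjusted p = 0.00644). In RAG2ko it was 5.90 ± 0.30, higher than in Pax5ko by 1.43 ± 0.31 (adjusted p = 0.03, and 0.0593 without RAG2ko replicate 3, which left 0 genes of the list higher), on signals that are dim in both lines. Its promoter region, chr17:46763663-46763962 on the minus strand of GRCm38.p6, is printed because it holds TGGGAA at 2 places, marked in capitals.
Ptcra promoter: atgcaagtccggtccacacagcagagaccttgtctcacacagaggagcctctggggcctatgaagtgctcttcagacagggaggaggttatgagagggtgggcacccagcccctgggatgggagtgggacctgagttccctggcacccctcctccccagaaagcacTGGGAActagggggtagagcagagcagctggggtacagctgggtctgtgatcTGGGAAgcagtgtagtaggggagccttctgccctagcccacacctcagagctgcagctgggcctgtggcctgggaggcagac
The matches begin at -84 and -32 from the start. Of 25 genes in the pre-B cell, early progenitor and Notch and T cell lists, 20 had a promoter sequence, and 3 of them held TGGGAA on either strand in at least 1 region; the other 2 were Rag1 and Cd8a. That is 15% of the genes with a sequence, below the 25.6% of all promoter regions that hold TGGGAA. Genes were counted, and those with 2 regions had more room for a match. The motif was therefore not more frequent in these lists than among promoters at large.

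Transcription factors that act upstream of or beside Ikaros gave 0 limma calls among 7 in Pax5ko minus EBFko (2 at an unadjusted p under 0.05), where Ikzf1 was lower. In RAG2ko minus Pax5ko 2 were higher and 1 lower, and in RAG2ko minus EBFko 3 higher and 2 lower, with medians of -0.25, 1.12 and 1.11. Called genes were 0%, 42.9% and 71.4% of the list, beside 5.22%, 9.92% and 12.6% of all probe sets. Spi1 (PU.1), a factor of early lymphoid and myeloid cells, stepped down, at 10.13 ± 0.16, 9.58 ± 0.12 and 9.29 ± 0.10, and passed in RAG2ko minus EBFko (-0.85 ± 0.15, adjusted p = 0.0128) but not in Pax5ko minus EBFko (-0.56 ± 0.15, adjusted p = 0.0977). Gfi1, a repressor that opposes PU.1, was higher in RAG2ko than in Pax5ko (1.36 ± 0.14, adjusted p = 0.0016) and than in EBFko (1.11 ± 0.14, adjusted p = 0.00268). Runx1 was lower in RAG2ko in the same comparisons (-1.30 ± 0.27 and -1.40 ± 0.27, adjusted p = 0.0257 and 0.0161). Without RAG2ko replicate 3, calls were gained by Ebf1 in Pax5ko minus EBFko (-0.89 ± 0.15, adjusted p = 0.0246), Tcf3 in RAG2ko minus Pax5ko (0.80 ± 0.19, adjusted p = 0.0453) and Myb in RAG2ko minus EBFko (-0.56 ± 0.14, adjusted p = 0.0494), and the counts became 0 higher and 1 lower, 3 and 1, and 3 and 3. Ebf1 is the gene targeted in EBFko, and it was among the genes called higher in RAG2ko minus EBFko (1.14 ± 0.22). Its calls against EBFko are therefore not results about the list.

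Profiles over the 9 arrays were compared by the root mean square of the log2 differences after each profile was centred. The genes most like Ikzf1 1436312_at were Cryzl1 (0.09), Cbfa2t3 (0.10), Ndst1 (0.12), Pip4k2a (0.15) and Ptpn1 (0.16). Cbfa2t3, a transcriptional corepressor also called ETO2, averaged 9.89 in EBFko, 8.74 in Pax5ko and 8.50 in RAG2ko. For Ikzf3 the probe set brightest in RAG2ko, 1436649_at, was used, a choice made after its values were seen. The nearest genes were Ifi44l (1.05), Pla2g7 (1.17), Ms4a6b (1.22), Acpp (1.32) and Sit1 (1.35). The larger distances for Ikzf3 come with dim and scattered signals in EBFko and Pax5ko. The plan used the probe set of a gene with the highest mean over the 9 arrays, provided that it passed in a comparison. Those of Ikzf2 (1437542_at) and Ikzf3 (1441088_at) passed in none, so the plan would have left out both genes. Only Ikzf2 was left out, and the search for Ikzf3 departed from the plan.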

How the data were processed

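Each array's deposited values are intensities on a linear scale, 1 per probe set, with a trimmed mean (2% removed from each tail) of 500.003 to 500.004 per array; per the labels, the processing tool was GCRMA, with the step that made this scale not given in the sources used here. The deposited tables of each knockout hold 1 linear ratio per probe set to an unstated reference, with samples pooled, and served only as an alternative source. Here 64 control probe sets were removed, the log2 of each signal was quantile normalized over 9 arrays, and lines were compared with limma 3.58.1 (lmFit, eBayes, R 4.3.3) in 1 fit. The plan had described the values as log2, which they were not. Genes were named by RefSeq accession (13127 probe sets), by shared description (4936) or by hand from 16 descriptions (35); 26939 stayed unnamed. Named genes were the members, the called or role-defining genes of lists of partners, targets and regulators, and the 5 nearest profiles. Members and lists were chosen with earlier results of these data known. Promoter sequences are RefSeq's. The code was tested on simulated data. No array copied another. Alternatives covered normalization, filter, a floor at 64, 1 probe set per gene, eBayes settings, 6 arrays, the replicate block, 2-fold calls, ratio tables and each array left out; list counts and Ikzf5 without RAG2ko replicate 3 were added after seeing the data.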

Additional observations from a re-analysis of the deposited data

How the results depend on the processing

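Both Ikzf1 calls against EBFko kept their direction and passed in all 18 and 19 tested alternatives of their probe sets, with adjusted p from 8.53e-06 to 0.0349 for Pax5ko minus EBFko and from 1.89e-06 to 0.0168 for RAG2ko minus EBFko. Ikzf3 1436649_at passed in RAG2ko minus EBFko in all 18 (2.12e-07 to 0.0387) and in RAG2ko minus Pax5ko in 13 of 18 (1.97e-07 to 0.075). Family probe sets called were 3 in Pax5ko minus EBFko, 2 in RAG2ko minus Pax5ko and 3 in RAG2ko minus EBFko, the order kept below. With 1 probe set per gene, which leaves out most family probe sets by construction, they were 1, 0 and 1. Ikzf3 was read there on 1441088_at, its probe set with the highest mean, and 1436649_at was not tested. It did not pass in that limma fit (adjusted p = 0.054 for RAG2ko minus Pax5ko and 0.126 for RAG2ko minus EBFko). Leaving out 1 array gave 2 to 3, 0 to 2 and 3 to 3. With replicate number as a block, RAG2ko minus Pax5ko had 1, and Ikzf2 1456956_at lost both calls (adjusted p = 0.0693 and 0.0656). Replicate numbers did not pair the arrays throughout: same-numbered arrays correlated at -0.00618 to 0.114, and not every array correlated best with its own number. Replicates 2 and 3 did share some deviation by number. Between lines, replicate 3 arrays correlated at 0.0786 to 0.109 and replicate 2 arrays at 0.039 to 0.114, whereas replicate 2 against replicate 3 gave -0.119 to -0.0324. The source of this shared deviation was not tested. Over all probe sets 2135 (1080 higher, 1055 lower), 4060 (2040, 2020) and 5173 (2623, 2550) were called. In Pax5ko minus EBFko this became 3264 with a filter at 6, 4375 with signals below 64 raised, 996 with 1 probe set per gene, 3817 with trend and robust settings and 1222 with the block. In RAG2ko minus Pax5ko it became 6789 with signals raised, 1672 with 1 probe set per gene, 6272 with trend and robust settings and 2641 with 6 arrays. In RAG2ko minus EBFko it became 2041 with 1 probe set per gene and 3171 with 6 arrays, and without quantile normalization 2013 were higher and 2965 lower. Leaving out 1 array gave 983 to 2546, 2436 to 4518 and 3150 to 5970. The differences that turned sign passed in no tested setting. In refits, Ikzf3 1436649_at in Pax5ko minus EBFko was -0.10 without EBFko replicate 3 (-0.10 to 2.08 over the arrays left out), Ikzf1 1436312_at in RAG2ko minus Pax5ko was 0.01 without quantile normalization, and Ikzf2 1437542_at was -0.09 without Pax5ko replicate 1 and -0.16 without RAG2ko replicate 2 in RAG2ko minus Pax5ko (-0.16 to 1.03), and 0.14 without RAG2ko replicate 1 in RAG2ko minus EBFko (-1.05 to 0.14), while Ikzf1 1421303_at in RAG2ko minus Pax5ko, at -0.00, ranged from -0.14 to 0.11. In the deposited ratio tables, Ikzf2 1437542_at (-0.05) and Ikzf1 1436312_at (0.02) in RAG2ko minus Pax5ko and Ikzf2 1456956_at in RAG2ko minus EBFko (0.35) had the other sign. Ikzf5 1436554_at in RAG2ko minus Pax5ko was 0.01 without RAG2ko replicate 3. The causes were not tested. Dim signals limit Ikzf2 and the lower values of Ikzf3, and where each probe set lies in its transcript was not used here.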
